A study of Drosophila melanogaster with 2 samples.

Results

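The genes described here are 9 core genes of the Notch signalling pathway of Drosophila melanogaster, N, Dl, Ser, Su(H), H, mam, numb, fng and neur, out of 13945 protein-coding genes on the 6 arms analysed. They were chosen by name, and a peak was counted for a gene when its summit lay between 5 kb before the gene and 5 kb after it. By this rule 5 of the 9 genes (N, mam, numb, fng and neur) carried 16 summits of the optimal list, and 4 (Dl, Ser, Su(H) and H) carried none. Of all protein-coding genes, 41.0% had a summit by this rule.

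Binding of the T-box transcription factor Org-1 was measured by chromatin immunoprecipitation followed by sequencing. The single group consisted of a transgenic fly line that stably carries org-1 with green fluorescent protein (GFP) at the C-terminal end of its product, sampled as whole embryos of mixed sex aged 2 to 24 hours, in 2 biological replicates. The precipitation used an antibody to GFP according to the library descriptions, while the antibody field names org-1. What is seen is therefore the tagged protein of one line, averaged over all tissues and over most of embryogenesis, and cells that lack it contribute DNA too. No other genotype or condition was analysed, so with 1 group of 2 libraries no difference was tested, and the values of the 9 genes are given for the pooled data and for each replicate.

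Notch is a receptor on the cell surface that is activated by ligands on neighbouring cells, which releases its intracellular part into the nucleus. There it joins the DNA-binding protein Su(H) and the co-activator Mastermind and switches on target genes, which without the signal are held down by Su(H) with Hairless. In the embryonic mesoderm and nervous system the pathway singles out precursor cells from groups of equivalent cells and gives sister cells different fates, and Org-1 itself is known from founder cells of body wall and visceral muscles.

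The strength of a peak is the authors' signal value, which has no physical unit and ranks regions within a list. Ratios between the replicates are given as deposited, with no common scale, and are read against the same ratio over all optimal peaks. The optimal list holds 4434 peaks with signals from 100.7 upwards and a median of 164. These are also the 4434 strongest of 30000 candidate regions in the pooled data, most of which are weak, with a median signal of 39.8. Each replicate has its own list of 30000 candidates, and its 4434 strongest are called its strong regions here (signal of at least 59.5 in replicate 1 and 49.5 in replicate 2). Read depth is unknown from these lists, so no interval is given for a signal. Coordinates are in build dm6.

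The share of Notch pathway genes with a summit was near the background. Of the 9 genes 5 had an optimal summit in their window, and of all 13945 protein-coding genes 41.0% had one. Long windows held a summit more often, and 8 of the 9 Notch pathway genes, all but Su(H), fall in the quartile with the longest windows (14999 bp or more, against a median window of 12166 bp over all genes). In that quartile 56.7% of genes had a summit, and in the third quartile, where Su(H) belongs, 42.5%. Strong regions were present at 5 of the 9 genes in replicate 1, where 40.4% of all genes had one, and at 5 in replicate 2, where 40.5% had one. They were the same 5 genes in each list. Candidate regions of any strength in the pooled data were present at 7 of the 9, all but Su(H) and H, and at 83.3% of all genes. Per 10 kb of window the 9 genes held 0.496 optimal summits, against 0.408 for all genes of the longest quartile.

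**Figure D1:**
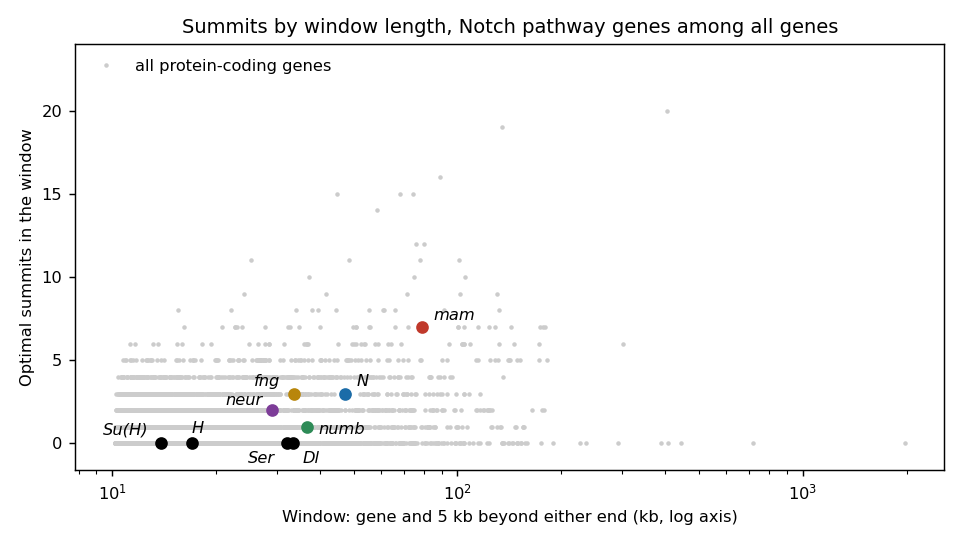
Number of optimal summits in each gene's window against the window's length in kb on a log axis, with Notch pathway genes as large named points (black where they have none) and all protein-coding genes in grey. mam has 7 summits in a window of 79154 bp, and Dl and Ser have none in windows longer than 30 kb.

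The 5 genes with summits differed in number and strength. mam had 7 summits, N and fng 3 each, neur 2 and numb 1. At least 7 summits were found at 63 of all genes (0.452%), at least 3 at 992 (7.11%). These shares are not matched for window length, and longer windows can hold more summits. Per 10 kb of window fng held 0.892 summits, mam 0.884, neur 0.687, N 0.634 and numb 0.272. The strongest summit had a signal of 627 at N, 548 at numb, 541 at mam, 373 at neur and 166 at fng. A summit at least as strong as that of N was present in the windows of 508 of all genes (3.64%), and one at least as strong as that of fng at 3718 (26.7%). The order of the first 3 was not the same in the replicates. In replicate 1 the strongest region had a signal of 396 at mam, 324 at numb and 274 at N, while in replicate 2 it had 355 at N, 222 at numb and 146 at mam. neur (244 in replicate 1 and 129.7 in replicate 2) and fng (109 in each, at different summits) took the fourth and the fifth place in both.

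**Figure D2:**
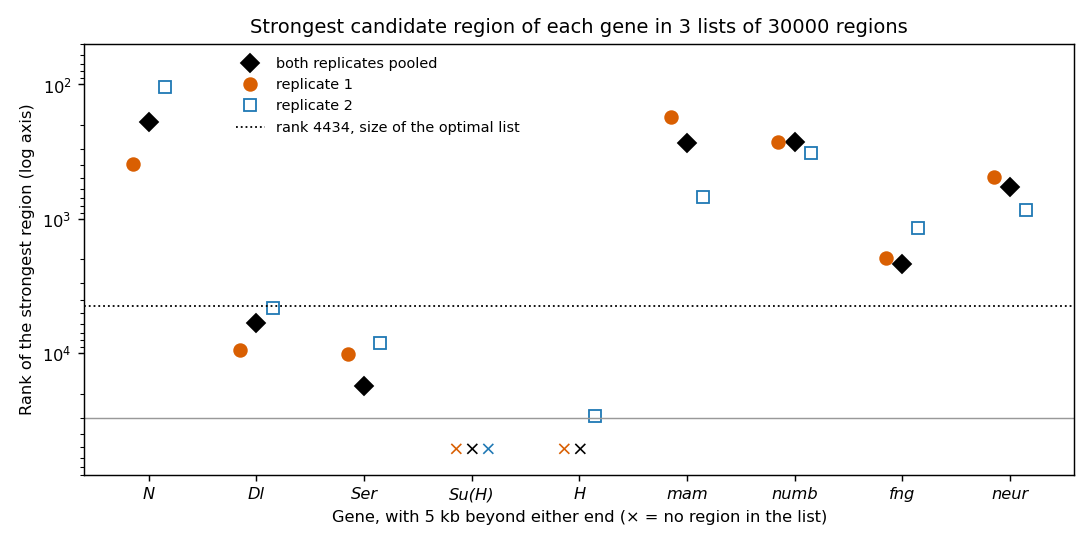
Rank of the strongest candidate region of each Notch pathway gene on a log axis, in the pooled data (diamonds), replicate 1 (circles) and replicate 2 (squares), each list holding 30000 regions, with crosses where a list has none. N, mam, numb, fng and neur lie above the dotted line at rank 4434 in all 3 lists and Dl, Ser, Su(H) and H lie below it or have no region.

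N (FBgn0004647, X, 3134870 to 3172221, plus strand) encodes the receptor. Its strongest summit lay deep in the gene, in intron 5 of both annotated transcripts, 27691 bp from the start. This peak (X, 3162351 to 3162710) had a signal of 627 and rank 190 in the optimal list, with 274 (rank 388) in replicate 1 and 355 (rank 105) in replicate 2. The other 2 summits of N were weak. One lay 419 bp upstream of the start, in the promoter and over the 3′ end of the neighbouring gene kirre, which encodes an adhesion receptor of myoblast fusion. It had a signal of 123 (rank 3349), with 65.7 in replicate 1 and 63.8 in replicate 2. The other lay in intron 1, 2049 bp downstream of the start (123, rank 3352), with 46.8 and 68.7. In each replicate the intron 5 region stood far above both of them, by more than the replicates differed from each other at any of the 3.

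The bases of the intron 5 peak are shown because it is the strongest at any of the 9 genes and because it holds a full Su(H) word. Printed are the first 300 of its 360 bases, with capitals at every word searched for here that occurs in them.
N intron 5 (chrX:3162351-3162650, forward strand): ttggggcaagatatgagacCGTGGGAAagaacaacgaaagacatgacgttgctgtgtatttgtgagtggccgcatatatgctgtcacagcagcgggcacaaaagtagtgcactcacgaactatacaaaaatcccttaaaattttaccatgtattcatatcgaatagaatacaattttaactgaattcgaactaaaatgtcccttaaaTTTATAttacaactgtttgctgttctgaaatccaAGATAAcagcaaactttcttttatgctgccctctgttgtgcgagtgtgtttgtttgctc
The first capitals, CGTGGGAA at positions 3162370 to 3162377, are the word searched for Su(H), 187 bp to the left of the summit at 3162561. They contain the shorter Su(H) word TGGGAA. They lie inside the strongest N region of replicate 2 (3162354 to 3162704) but outside that of replicate 1 (3162415 to 3162665). The TATA box word TATAAA stands at the summit on the other strand, printed as TTTATA, and the GATA word AGATAA lies to its right. CGTGGGAA was present in 19 of all 4434 optimal peaks (0.429%), and N was the one gene of the 9 whose peaks held it. Within 50 bp, the planned window, it was at 0 of the 16 summits and at 0.0226% of all optimal summits. The search of whole peaks was added after seeing the data. A match of letters is a description of the sequence and no measurement of Su(H), whose binding was not measured here.

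**Figure D3:**
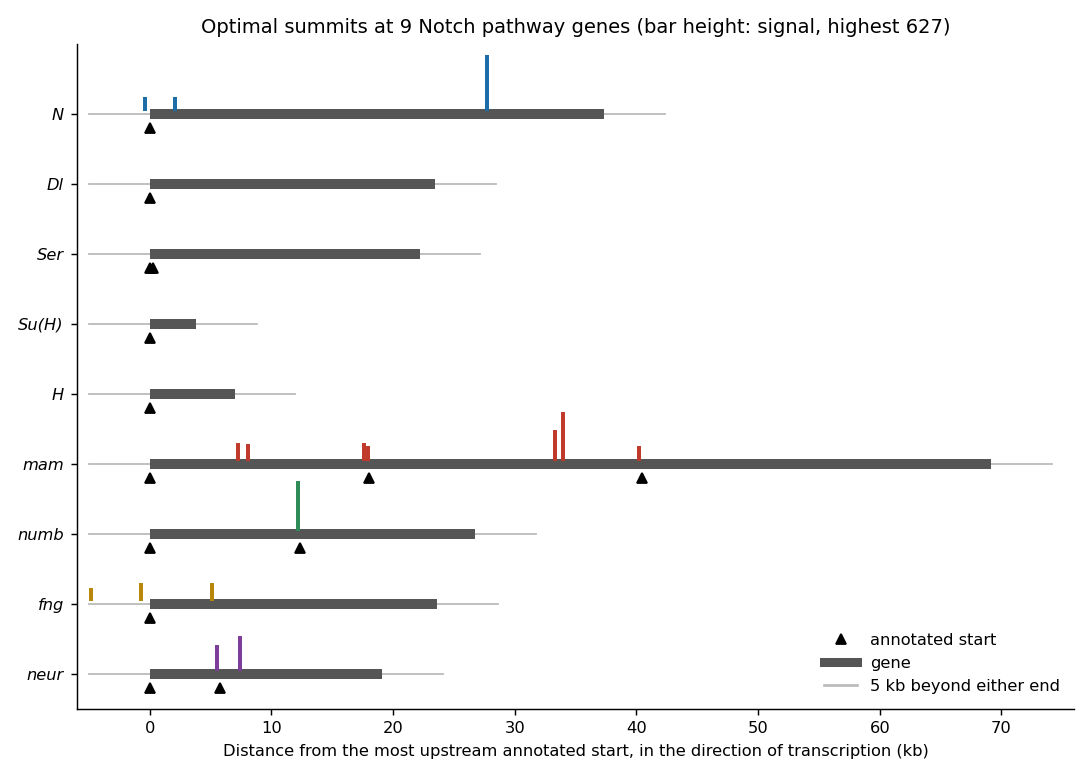
Optimal summits at the 9 Notch pathway genes, drawn to scale along each gene from its most upstream annotated start in kb, with bar height proportional to signal (highest 627, N) and triangles at annotated starts. The strongest summit lies inside the gene at all 5 genes that have one, and the most upstream starts of mam, numb and neur have none.

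Dl and Ser, which encode the transmembrane ligands of Notch, had no optimal summit. Dl (listed as Delta, FBgn0000463, 3R, 19302731 to 19326217, minus strand) had 11 candidate regions in the pooled data. The strongest lay 1534 bp beyond its 3′ end (3R, 19300969 to 19301424) with a signal of 80.9 and rank 5967. Its counterpart had 33.4 (rank 9378) in replicate 1 and 48.4 (rank 4612) in replicate 2, the replicate 2 value just short of its strong regions. At the Dl start the pooled data had a candidate of 34.9 (rank 17997), and neither replicate had one. Ser (FBgn0004197, 3R, 27172090 to 27194267, minus strand) had 5 pooled candidates. The strongest, in an intron 7680 bp from the start, had a signal of 35.7 (rank 17404), below the median of the pooled list. The strongest Ser region was 31.7 (rank 10078) in replicate 1 and 33.1 (rank 8314) in replicate 2. The nearest optimal summit with a Ser start as its nearest start lay 14932 bp upstream of the gene (signal 179.6, rank 1940, 82.6 in replicate 1 and 95.8 in replicate 2), outside the window.

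The nuclear factors ran from no region at all to the highest count of the set. Su(H) (FBgn0004837, 2L, 15039488 to 15043334, plus strand) is the DNA-binding protein of the pathway, and its window held no region in the optimal, pooled or replicate lists. H (FBgn0001169, 3R, 20621938 to 20628915, plus strand) encodes Hairless, the adaptor that recruits co-repressors to Su(H). Its window held 1 region of replicate 2 with a signal of 14.6, rank 29331 of 30000, and none in the other lists. mam (FBgn0002643, 2R, 13991203 to 14060356, plus strand) encodes the co-activator Mastermind and is the longest gene of the 9 at 69154 bp. Its window held 7 optimal summits among 37 pooled candidates, and 12 strong regions in replicate 1 and 11 in replicate 2.

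The summits of mam formed 2 strong intronic peaks and 5 weaker ones. The strongest (2R, 14024960 to 14025339) had a signal of 541 (rank 274), with 396 in replicate 1 and 146 in replicate 2. A second, 726 bp away (2R, 14024416 to 14024691), had 321 (rank 735), with 202 and 116. Both lay in an intron, more than 6 kb upstream of the start of mam-RC, and the nearest protein-coding start was that of CG18371, 3408 and 4134 bp away. A pair of the weaker peaks overlapped each other at the internal start of mam-RB, 17996 bp into the gene. Their summits lay 383 bp (172, rank 2076) and 71 bp (126, rank 3249) upstream of it, and both corresponded to the same region of each replicate (168 in replicate 1 and 78.4 in replicate 2), so they are not independent. Another lay 273 bp upstream of the start of mam-RC, 40460 bp into the gene (127, rank 3219, with 62.6 and 69.5). The remaining 2 lay in the first part of the gene, 7285 bp (163, with 76.4 and 80.8) and 8115 bp (154, with 96.3 and 58.3) from the most upstream start. All 7 were strong regions of both replicates.

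The candidates of mam also stood just outside the optimal list. Pooled regions of mam with signals of 99.6 (rank 4495), 98.9 (rank 4541) and 98.6 (rank 4563) lay a little below the lowest optimal signal of 100.7. The weakest summit inside the list at any of the 9 genes was at fng, with 107 (rank 4060). The 5 weaker summits of mam, between 126 and 172, lay nearer to this boundary than its 2 strong ones.

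fng (FBgn0011591, 3L, 20925891 to 20949512, minus strand) encodes a glycosyltransferase that modifies the Notch receptor and changes its response to Dl and Ser. Its 3 summits were weak or middling, and none was a strong region of both replicates. The first, in intron 1 and 5149 bp downstream of the start (3L, 20944135 to 20944590), had a signal of 166 (rank 2180), with 52.1 (rank 5262) in replicate 1 and 109 (rank 1163) in replicate 2. The second, 710 bp upstream of the start (3L, 20949994 to 20950449), had 162 (rank 2265), with 109 (rank 1942) in replicate 1 and 47.8 (rank 4686) in replicate 2. The pooled signals were thus almost equal, but the replicates ranked the 2 peaks in opposite order. The third, 4814 bp upstream (107, with 45.0 in replicate 1 and 65.4 in replicate 2), had the start of Sems as its nearest, 2424 bp away. The bases within 50 bp of the intronic summit, the strongest of fng, are shown because the replicates diverge there.
fng intron 1 (chr3L:20944313-20944413, forward strand): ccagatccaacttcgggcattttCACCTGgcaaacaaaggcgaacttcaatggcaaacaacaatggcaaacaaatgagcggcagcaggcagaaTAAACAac
Capitals mark the E-box word CAGGTG, read on the other strand as CACCTG, and the forkhead word TAAACA. The window at the intronic summit, which was stronger in replicate 2, was 46.5% GC, and that at the upstream summit, stronger in replicate 1, was 28.7%.

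neur (FBgn0002932, 3R, 9020348 to 9039471, minus strand) encodes an E3 ubiquitin ligase that drives the endocytosis of Dl in the cell that sends the signal. Its stronger summit lay in an intron 1705 bp downstream of the internal start shared by neur-RA and neur-RB (3R, 9031925 to 9032127) and had a signal of 373 (rank 576), with 244 (rank 485) in replicate 1 and 129.7 (rank 860) in replicate 2. The other lay 221 bp upstream of that start (3R, 9033724 to 9034179) with 263 (rank 1044) in the pooled data. It had 230.5 (rank 548) in replicate 1 and only 35.1 (rank 7570) in replicate 2. The ratio of replicate 1 to replicate 2 was 6.58 at this promoter summit, the highest of the 16, where the 90th percentile of all optimal peaks was 3.20. In replicate 2 alone this summit was not a strong region. The window of hyx, which encodes a subunit of the Paf1 transcription elongation complex, also holds it. Both sequences are shown for their low GC content.
neur intron (chr3R:9031976-9032076, forward strand): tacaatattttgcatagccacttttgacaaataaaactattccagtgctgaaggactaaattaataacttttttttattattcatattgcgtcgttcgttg
neur internal promoter (chr3R:9033902-9034002, forward strand): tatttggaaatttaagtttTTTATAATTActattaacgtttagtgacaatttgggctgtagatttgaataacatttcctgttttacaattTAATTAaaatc
The intronic sequence was 28.7% GC and the promoter sequence 21.8%, the lowest of the 16. Capitals in the promoter sequence mark the TATA box word, printed as TTTATA, which overlaps the first of 2 copies of the homeodomain word TAATTA. The intronic sequence holds none of the words.

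numb (FBgn0002973, 2L, 9437469 to 9464184, plus strand) encodes a membrane-associated inhibitor of Notch that goes to one daughter of an asymmetric division. Its only optimal summit was strong and similar in both replicates. It lay 182 bp upstream of the internal start shared by numb-RA and numb-RD, 12361 bp into the gene (2L, 9449389 to 9449777), with a signal of 548 (rank 266), 324 (rank 267) in replicate 1 and 222 (rank 322) in replicate 2. The sequence is shown as the strongest promoter summit of the set.
numb internal promoter (chr2L:9449598-9449698, forward strand): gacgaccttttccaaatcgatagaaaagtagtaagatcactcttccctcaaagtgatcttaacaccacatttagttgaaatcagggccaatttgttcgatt
It holds none of the words searched for, which says only that those letters are not in this window.

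**Figure D4:**
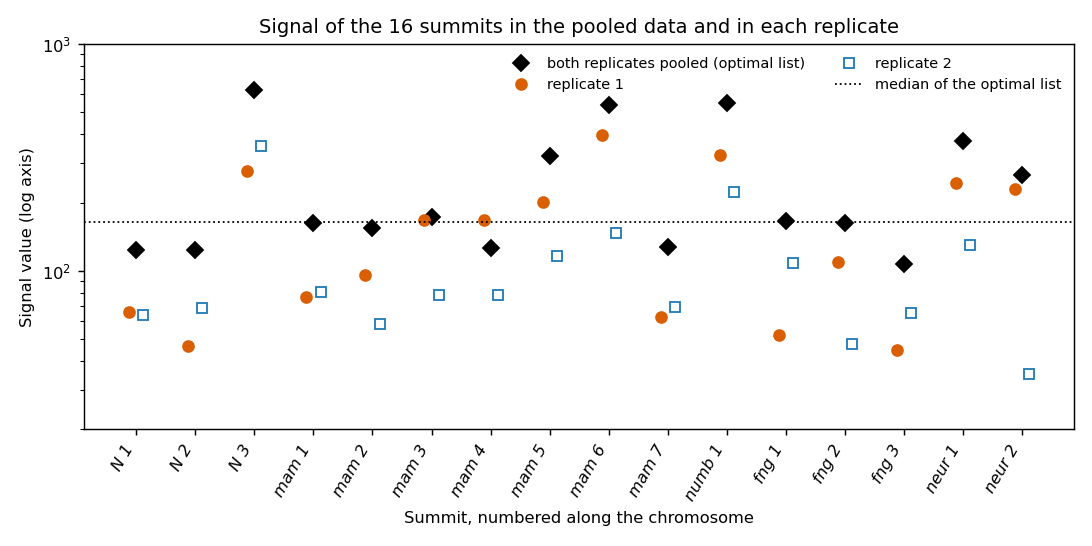
Signal of each of the 16 summits on a log axis in the pooled data (diamonds), replicate 1 (circles) and replicate 2 (squares), with the median of the optimal list (164) as a dotted line. Pooled and replicate signals are on separate scales, and the second summit of neur shows the widest gap between replicates, 230.5 against 35.1.

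Starts were examined one by one. Of the 9 genes 4 (N, mam, numb and neur) had a summit within 500 bp of an own start, where 13.6% of all genes had one. This share is not matched for window length or number of starts, and mam has 3 starts and numb and neur 2 each. mam, numb and neur have starts more than 1 kb apart, and none of the 3 had an optimal summit at the most upstream. Of their 10 summits, 5 lay within 500 bp of an internal start, namely 3 of mam, that of numb and 1 of neur, and the other 5 lay farther from any own start. At the most upstream start the pooled candidates had signals of 77.1 (rank 6344) at mam, 40.03 (rank 14841) at numb and 76.02 (rank 6453) at neur. At neur this start was a strong region of replicate 2 (50.4, rank 4312), while replicate 1 had no candidate there, and that region lay 259 bp inside hyx, the gene on the other strand. Among all 555 genes with starts this far apart and a summit at an own start, 284 (51.2%) lacked one at the most upstream, so the pattern of the 3 is common.

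By position, 8 of the 16 summits were intronic, where 43.1% of all optimal summits were. Promoters held 6 (37.6% of all) and intergenic sequence 2 (17.9% of all), and no summit fell in a coding exon or UTR. The nearest protein-coding start was the gene's own for 12 and another gene's for 4. These 4 were the strongest of N (CG18508, 10579 bp away), the 2 strongest of mam (CG18371) and that 4814 bp upstream of fng (Sems). The median signal was 164.4 at the 16 summits and 163.9 in the whole list, and 8 of the 16 lay above the second value. Of the 16, 11 had the highest −log10 q value of the list, as did 67.5% of all optimal peaks. Windows of other genes shared some of these summits: kirre holds 2 of N, CG18371 holds 3 of mam, Sems and CG10588 hold 1 of fng, and hyx holds 1 of neur.

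All 16 summits had a candidate region in each replicate, and 11 of the 16 overlapped a strong region of both, where 61.5% of all optimal peaks did. The 5 others were the intron 1 summit of N, the 3 of fng and the promoter summit of neur. The median ratio of replicate 1 to replicate 2 was 1.55 at these 16 summits and 1.37 over the 4264 optimal peaks with a region in each. The ratio was below 1 at 6 of the 16, against 31.1% of all. At the summits the median GC content was 32.7%, against 45.8% in windows 400 bp to either side, and 13 of the 16 had less GC than their flanks. Over all optimal peaks these medians were 33.7% and 43.6%, and 76.8% had less. Across the 16 summits the replicate ratio fell with GC content (Spearman rho -0.42), as it did across all peaks (-0.47). These summits come from the same 2 libraries, 2 of them from the same regions, and the part of base composition in any one value was not tested.

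**Figure D5:**
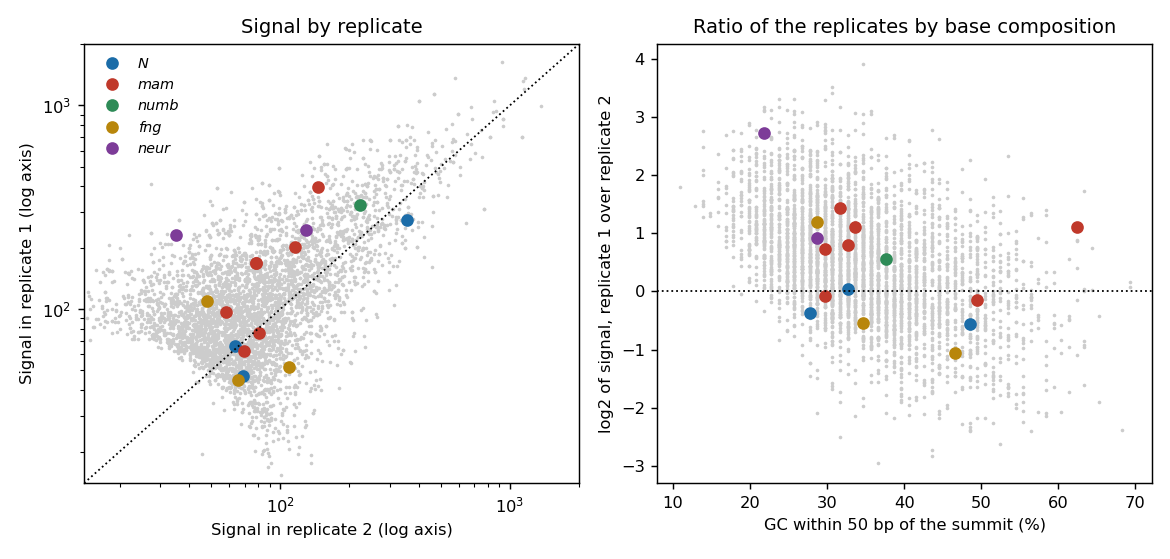
Left, signal in replicate 1 against replicate 2 on log axes, right, log2 of their ratio against GC content within 50 bp of the summit, with the 16 summits coloured by gene and all optimal peaks in grey. Of the 16, the promoter summit of neur stands highest in the right panel, with 21.8% GC.

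Words bound by known factors were counted at the 16 summits. Within 50 bp the T-box words AGGTGTG and GGTGTGA were present at 0 of the 16, where 0.586% and 0.654% of all optimal summits held them. In the whole peaks AGGTGTG was still absent, and GGTGTGA was present in the strongest peak of mam. The Su(H) word TGGGAA was within 50 bp of none of the 16, against 5.05% of all. Whole peaks held it in N intron 5 and at the summit 4814 bp upstream of fng, against 21.0% of all peaks. TAAACA was at 3 summits (1 of mam and 2 of fng, 16.6% of all) and TATAAA at 3 (N intron 5, 1 of mam and the neur promoter, 20.1%). Others were at a single summit: TAATTA (homeodomain, 8.95% of all) at the neur promoter, AGATAA (for GATA factors, 8.34%) in N intron 5, and GAGAGAG (for the GAGA factor, 1.38%) at the summit of mam before mam-RC. That summit also had the E-box CAGCTG (3.32% of all). The E-box CATATG (4.44%) was in N intron 1, CAGGTG (2.62%) in fng intron 1 and CACGTG (0.902%) at mam-RB. The second forkhead word TGTTTAC (4.49% of all) and the DREF word TATCGATA (0.857%) were at none. All words were read on both strands. Windows 400 bp to either side of all optimal summits held AGGTGTG in 0.823%, GGTGTGA in 0.688%, TGGGAA in 5.86% and CGTGGGAA in 0.158%. They held TGTTTAC in 2.27%, TAAACA in 9.62%, TATAAA in 10.2%, TAATTA in 5.85%, TATCGATA in 0.192% and AGATAA in 5.51%. GAGAGAG was in 3.26% of them, CATATG in 3.21%, CAGCTG in 4.62%, CAGGTG in 3.98% and CACGTG in 1.52%. TGGGAA is contained in CGTGGGAA, and AGGTGTG and GGTGTGA share 6 bases. With 16 summits these counts are too small to set apart from the shares of all summits.

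Other genes of the pathway and its known targets were read in the same way. From a list of 44 by role, written with earlier results known, 32 had a summit by the same rule, beside 41.0% of all genes. Within 2 kb 23 of the 44 had a summit, with no share of all genes computed. The 41.0% is not matched for window length, and in the quartile with the longest windows the share was 56.7%. The 32 genes had 54 distinct summits, since neighbouring genes share them. All 7 genes listed as nuclear factors had one, but 6 had one within 2 kb. Strong regions were present at 6 of the 7 in replicate 1 and at 6 in replicate 2. sgg, which encodes the kinase GSK3, had a signal of 945 (rank 67) and the co-repressor gene gro, whose product Hairless and the E(spl) proteins recruit, had 645 at its own promoter. The acetyltransferase gene nej had 492, the Mediator genes skd and kto 376 and 212, the co-repressor gene CtBP 199 and the splicing and Su(H) cofactor gene Bx42 114.7. Bx42 had no strong region in either replicate (19.6 in replicate 1 and 45.8 in replicate 2 at its summit). Among genes for receptor maturation and cleavage 5 of 8 had one, namely the protease genes Fur1 (589) and kuz (186), the fucosyltransferase gene O-fut1 (561), the γ-secretase gene aph-1 (354) and the glucosyltransferase gene rumi (211). The γ-secretase genes Psn, nct and pen-2 had none. For ligand endocytosis 3 of 6 had one, the genes of epsin, auxilin and dynamin (lqf 114.7, aux 248, shi 124), and mib1 and spdo had none. Strong regions were at 1 of these 6 in replicate 1 (aux) and at 3 in replicate 2 (lqf, aux and mib1). At the peak of shi replicate 2 had no region. Of 3 ubiquitin ligase genes dx had one (166). For several of these summits the nearest start was that of a neighbour, as at aph-1 (Snx21), O-fut1 (CG13018), Fur1 (Vps33B) and kuz (B4). The same held at aux (CG14636), dx (RpL7A), Bx42 (AP-1gamma), skd (CG10584) and kto (Papss). For those of sgg, gro and rumi the nearest start was the gene's own.

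Genes of the E(spl) complex, the locus of the best known Notch targets, shared their summits with each other and with gro beside them. Of 12 genes (11 of the complex and gro) 11 had a summit, where 41.0% of all genes had one, but their windows overlap. Within 2 kb E(spl)mgamma-HLH, E(spl)mbeta-HLH, E(spl)m4-BFM and E(spl)m6-BFM had none. The 25 gene and summit pairs came from 10 summits, and a pair of these matched the same region of each replicate. The strongest were at gro (645, with 348 in replicate 1 and 298 in replicate 2), upstream of E(spl)m3-HLH (598, with 494 and 98.4) and upstream of E(spl)m7-HLH (427, with 225 and 198). The other genes with a summit in the window were E(spl)mdelta-HLH, E(spl)mgamma-HLH, E(spl)mbeta-HLH, E(spl)m8-HLH, E(spl)malpha-BFM, E(spl)m2-BFM, E(spl)m4-BFM and E(spl)m6-BFM. Outside the complex h had 175, Brd and Ocho shared 1 of 109.8, ct had 201, vg 168 and edl 446. The summit of vg lay 137 bp inside Nmda1, and that of Brd and Ocho had the start of CG3349 as its nearest. In all, 12 of the 44 had no optimal summit, as had Dl, Ser, Su(H) and H among the 9.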

How the data were processed

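Chromatin immunoprecipitation followed by sequencing was done on 2 libraries of 1 group, and per the labels the sonicated fragments ran from 200 to 800 bp. The deposited lists hold for each region its coordinates, the authors' signal, the authors' −log10 of q, and how far the summit lies from the start. Per the deposited file descriptions, alignments of each library were used with a control alignment, and the optimal list was thresholded on the irreproducible discovery rate. Their aligner and caller were not given in the sources used here. The lists for dm6 were used, those for dm3 were not used here, and no coordinates were converted.

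Summits (start plus offset, 1-based) were assigned to protein-coding genes of Ensembl release 115 (BDGP6.54) within 5 kb. Bases came from RefSeq release 6 of the genome, and the sequences at mam and 1 at fng are not reported here. Promoter means within 500 bp of an annotated start, and words were searched within 50 bp of the summit. An optimal peak matched a replicate's region at 1 bp of overlap. Python 3.11.15, numpy 2.4.6, pandas 2.3.3 and scipy 1.17.1 were used, and the counting steps were checked on simulated data. Dl was matched through FBgn0000463, h through FBgn0001168, nct through FBgn0039234, and BobB could not be matched.

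Members and lists were chosen with earlier results of these data known. All 9 genes were named, together with genes holding the nearest start of a shared summit, all other pathway genes with a summit and 5 without. Alternatives covered the gene and promoter windows, nearest start, list size, overlap, word window and each replicate alone. Words in whole peaks and inverted repeats were added after seeing the data. Read depth is unknown, and no p-value was computed.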

Additional observations from a re-analysis of the deposited data

How the results depend on the processing

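The number of Notch pathway genes with a summit was 5 with windows of 0, 2 and 10 kb and with either replicate alone, 6 by nearest start, which added Ser, and 4 with the 1000 or 2000 strongest optimal peaks, which lost fng. The number of summits depended on the list: 16 in all, but 5 among the 1000 strongest and 6 among the 2000 strongest optimal peaks, and 20 or 21 with 1 replicate left out. By windows and nearest start it ranged from 13 to 20. Genes with a summit at an own start were 3 within 250 bp (without N), 5 within 1000 bp (with fng) and 4 in the other alternatives, where replicate 2 alone counts neur through its most upstream start. Summits in strong regions of both replicates fell to 9 with summits within 100 bp or with overlap of 50% of the peak. Other pathway genes with a summit were 23 within 2 kb and 30 or 33 with 1 replicate left out. The share of all genes was not computed for the alternative gene and promoter windows, so these counts have no background beside them. Of 26 such alternatives 24 stayed within 1.5 times the value reported. The 15 words gave 75 alternatives of which 34 moved by more, 25 of them up. Read depth, unknown here, limits what can be said of the regions below the threshold. No paired analysis was possible because there is 1 group.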

Other observations

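Strong regions of one replicate that overlapped no optimal peak were also present in the windows of these genes, 7 in replicate 1 and 6 in replicate 2. No share over all genes was computed beside these counts, and long windows can hold more. mam, the longest, held 5 of the first and 4 of the second. A pair of its replicate 1 regions overlapped each other and matched the same pooled region (99.6, rank 4495), so they are not independent. One of its replicate 2 regions lay 96 bp from the start of RN-tre. One region of replicate 1 lay 986 bp upstream of the internal start of numb, with a signal of 71.9 (rank 3400). Replicate 2 had no candidate there, and the pooled data had 34.9 (rank 17977). fng had 1 in each replicate, both beyond its 3′ end, with signals of 62.0 in replicate 1 and 76.9 in replicate 2.

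Between 5 and 10 kb from these genes, 4 more optimal summits were found, 3 of which lay at the start of a neighbour. The summit upstream of mam (231, with 160.5 in replicate 1 and 70.9 in replicate 2) lay 76 bp inside CG8067, that upstream of numb (216, with 184 and 54.2) lay 42 bp from the start of scat, and that upstream of neur (120.1, with 128 in replicate 1 and no region in replicate 2) lay 326 bp from the start of Rel, an NF-κB family gene. The summit beyond fng had a signal of 139.

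A pair of the printed sequences hold a perfect inverted repeat with arms of 10 bases, which was noticed after the sequences had been read. At the numb internal promoter the arms lie at 9449629 to 9449638 and 9449649 to 9449658, on either side of the summit at 9449648, with 10 bases between them. In N intron 5 they lie at 3162572 to 3162581 and 3162596 to 3162605, with 14 bases between them. Repeats of this length within 50 bp were present at 62 of all 4434 optimal summits (1.40%) and in 1.43% of windows 400 bp away, and arms of at least 8 bases at 5 of the 16 and 15.3% of all summits, against 9.96% of flanks.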
